A study of Mus musculus with 9 samples.

Results

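The Slc22 genes described here encode membrane carriers of organic ions and were followed in the livers of control mice, of mice with nonalcoholic steatohepatitis (NASH) and of trained NASH mice. They are Slc22a3, Slc22a5, Slc22a7, Slc22a15, Slc22a18, Slc22a23, Slc22a27, Slc22a28 and Slc22a30, 9 of the 17846 genes measured. They were taken by symbol from a list selected on the RNA levels of these same mice, with every comparison in view, so their levels and differences are given as a description, without a p-value. All 9 were found and had enough counts for the model fitted to all genes. The measured genes held 12 further Slc22a genes, which are reported separately.

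All mice were male, wild type (WT) and of the C57/BL strain. The control mice (Control) received normal chow. The NASH mice were kept on an atherogenic diet with cholesterol and cholate (Ath diet) for 20 weeks and stayed sedentary. The NASH+Exercise mice ate the Ath diet for 12 weeks and then trained on a treadmill for 8 weeks. Their sample labels give no total time on the diet. The study fasted the animals overnight before the livers were taken. There were 3 mice in each group, with 1 library per mouse. The p-values and standard errors below come from a model of the spread between these mice. That spread was estimated over the 3 groups, with information shared across genes.

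SLC22 carriers move charged small molecules across the plasma membrane, and the family is divided by substrate into cation, zwitterion and anion branches. In the liver they sit mainly in hepatocytes, where they take up drugs, metabolites and carnitine from the blood. Carnitine carries long-chain fatty acids into mitochondria for oxidation, so its uptake is tied to the use of fat as a fuel. Several of the genes have copies that lie side by side on a chromosome and encode closely related proteins.

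Relative to control mice, the carnitine carrier Slc22a5 was 5.05-fold lower in NASH mice, the monoamine carrier Slc22a3 was 3.80-fold lower and the anion branch gene Slc22a28 was 3.001-fold lower. Relative to sedentary NASH mice, Slc22a28 was 3.73-fold higher in NASH+Exercise mice and the anion carrier Slc22a7 was 4.03-fold higher, while Slc22a3 lay within the range of the NASH mice in every trained mouse. Slc22a5 did so too in counts scaled by TMM, but in TPM it was lower in every trained mouse than in any NASH mouse. Slc22a18 and Slc22a23, which are strongly expressed in liver, had absolute log2 fold changes of at most 0.46 in these comparisons. A gene was called when its adjusted p was under 0.05 and its absolute log2 fold change was above 1. By that rule 3 of the 9 genes were called in NASH mice against control mice, 0 higher and 3 lower, beside 18.3% of all genes tested, 15.3% higher and 3.03% lower. By adjusted p alone 5 of the 9 passed, beside 35.6% of all genes. Between trained and sedentary NASH mice 1 of the 9 was called, Slc22a28, which was higher, beside 0.140% of all genes, 0.103% higher and 0.0367% lower. Since the genes were listed with these values known, these counts are not evidence about the family.

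Each library held between 20085976 and 22495408 estimated counts. The levels of single mice are given as counts scaled to library size and by the trimmed mean of M values (CPM), and the scaling factors lay between 0.7997 and 0.9761 in control mice, between 1.094 and 1.228 in NASH mice and between 0.9125 and 1.077 in NASH+Exercise mice. Hepatocyte markers were present in every library, with a summed level of 113000 to 133000 CPM in control mice, 68900 to 98500 CPM in NASH mice and 77000 to 104000 CPM in NASH+Exercise mice. None of the 7 hepatocyte markers was called by edgeR or DESeq2 in either comparison, but 5 had an unadjusted p under 0.05 in NASH against control mice and 0 in trained against sedentary NASH mice. Markers of macrophages summed to 65.2 to 118 CPM in control mice, 686 to 888 CPM in NASH mice and 509 to 624 CPM in NASH+Exercise mice, and 7 of 7 were called higher in NASH mice than in control mice. Among the other lists, 5 of 6 neutrophil, 5 of 5 T and NK cell, 3 of 6 stellate cell, 3 of 5 cholangiocyte, 1 of 6 sinusoidal endothelial and 0 of 4 B cell markers were called higher in that comparison. Of all genes tested, 15.3% were called higher in it. With training the sums for macrophages, neutrophils, T and NK cells, stellate cells and cholangiocytes lay below those of every NASH mouse, although edgeR called 0 of the markers on any of these lists, and 1 of 7, 1 of 6, 2 of 5, 3 of 6 and 2 of 5 had an unadjusted p under 0.05. Stellate cell markers summed to 231 to 290 CPM in NASH mice and 101 to 170 CPM in trained mice, and DESeq2 called Col3a1 and Col1a1 lower in trained mice and no other marker of these 5 lists. The part of these cells in the differences described here was not tested. In bulk liver, fewer hepatocytes and less RNA per hepatocyte cannot be told apart.

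To compare genes with each other, levels per transcript length were used (TPM), which do not carry the TMM scaling factors. In control mice Slc22a18 was the most abundant of the 9 genes with 109 ± 12.1 TPM (SD, n = 3). It was followed by Slc22a30 with 70.4 ± 19.2 TPM and Slc22a5 with 62.0 ± 11.5 TPM, whose ranges overlapped. Slc22a23 came next with 21.98 ± 3.77 TPM. Slc22a7 with 5.58 ± 2.79 TPM and Slc22a28 with 5.46 ± 1.30 TPM overlapped, as did Slc22a3 with 2.60 ± 0.512 TPM and Slc22a15 with 1.73 ± 0.546 TPM. Slc22a27 was at 0.343 ± 0.206 TPM, the lowest of the 9.

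The order of the genes differed between the groups mainly through Slc22a5, Slc22a7 and Slc22a3. Slc22a5 stood above Slc22a23 in control mice and below it on average in NASH mice with 16.4 ± 5.01 TPM, where the ranges overlapped and Slc22a23 had 21.5 ± 1.78 TPM. After training Slc22a5 was at 9.76 ± 0.545 TPM, below Slc22a7 with 20.0 ± 3.34 TPM in every mouse. Slc22a7 then overlapped Slc22a23, which was at 20.3 ± 2.14 TPM. Slc22a3, above Slc22a15 on average in control mice, lay below it in each of the other groups, with 0.933 ± 0.485 against 1.72 ± 0.171 TPM in NASH mice. Summed over the 9 genes the level was 260 to 289 TPM in control mice, 251 to 255 TPM in NASH mice and 274 to 305 TPM in NASH+Exercise mice.

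**Figure D1:**
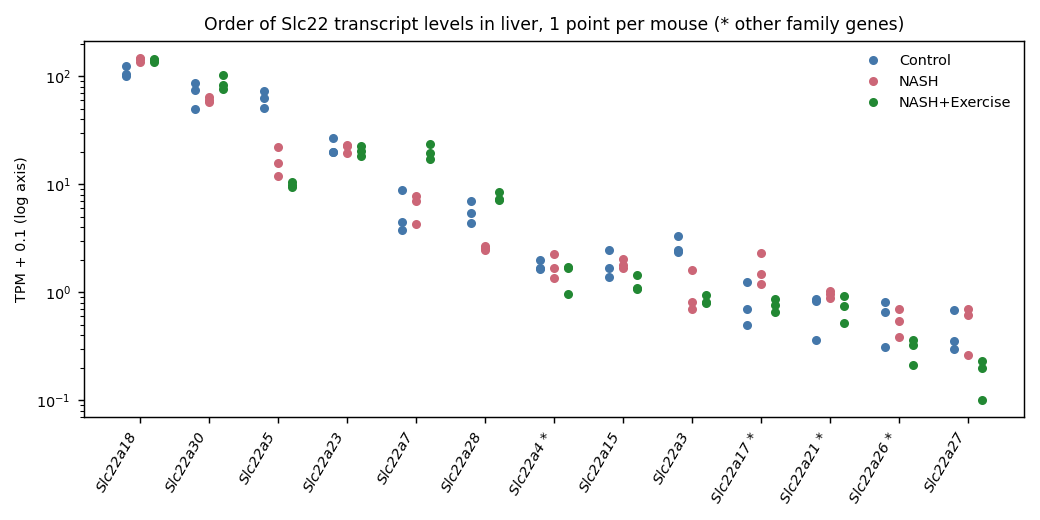
TPM plus 0.1 of the 9 Slc22 genes and of Slc22a4, Slc22a17, Slc22a21 and Slc22a26 on a log axis, 1 point per mouse, in Control (blue), NASH (red) and NASH+Exercise (green), ordered by the mean over the 9 mice; asterisks mark the genes outside the 9. Slc22a5 steps down from Control to the other groups, whereas the NASH+Exercise points of Slc22a7 lie above all others of that gene.

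Slc22a5 (Entrez Gene 20520, chr11:53864542-53891796, GRCm38.p6) encodes OCTN2, the high-affinity sodium-dependent carnitine carrier. Its levels in the 3 control mice were 116, 113 and 124 CPM. The NASH mice had 22.9, 15.1 and 31.9 CPM. The NASH+Exercise mice had 16.1, 16.9 and 18.04 CPM. All control mice were thus far above all mice on the Ath diet, and the trained mice lay within the range of the sedentary NASH mice. In TPM the trained mice, at 9.22 to 10.31, were below all NASH mice, at 11.81 to 21.74, and the difference on log2(TPM + 1) was -0.65. The log2 fold change was -2.34 ± 0.22 (SE) in NASH against control mice, -2.79 ± 0.23 in NASH+Exercise against control mice and -0.45 ± 0.22 in NASH+Exercise against NASH mice. Leaving out any single mouse kept the first of these between -2.63 and -2.14.

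**Figure D2:**
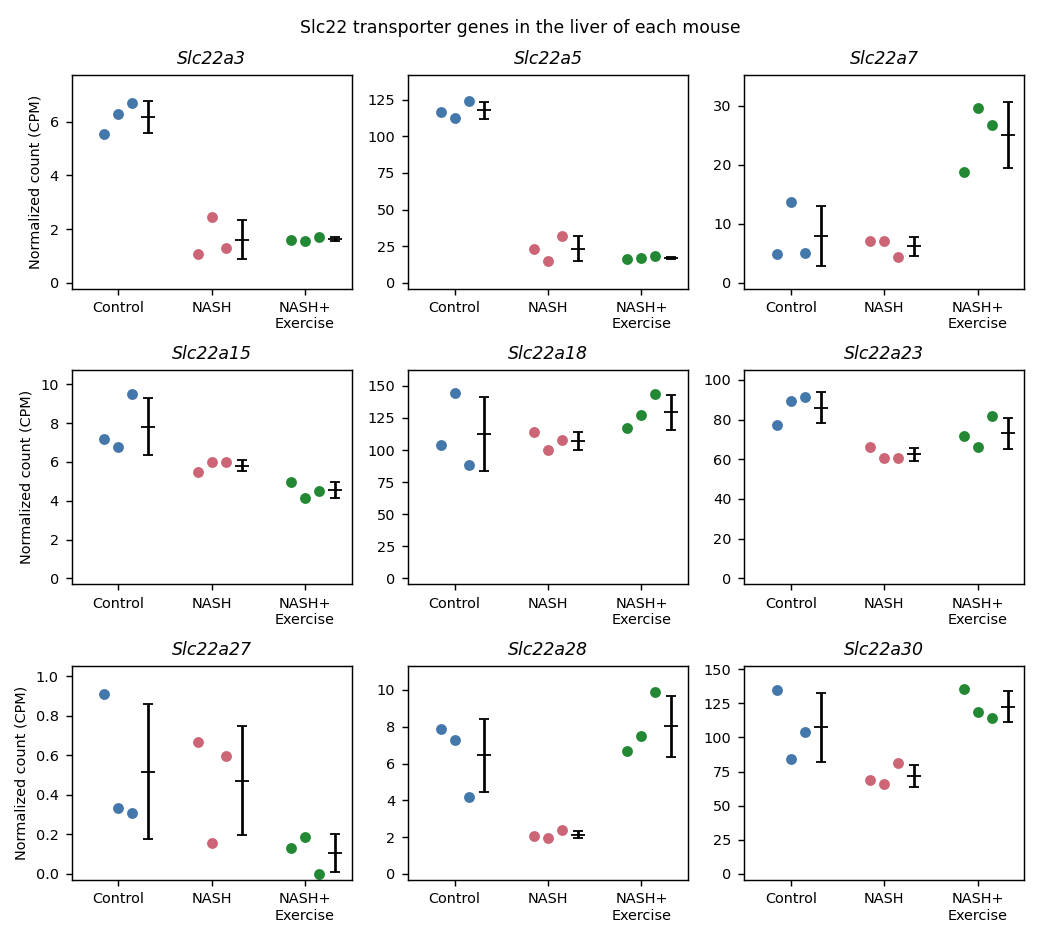
CPM of the 9 Slc22 genes in each mouse (points) with the mean and SD of the 3 mice of each group (bars), on linear axes that include 0. Slc22a5 and Slc22a3 are high in Control only, Slc22a7 is high in NASH+Exercise, and Slc22a28 and Slc22a30 are lowest in NASH.

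Slc22a21 and Slc22a4 follow Slc22a5 on chromosome 11 and encode related carnitine and zwitterion carriers. The longest coding transcripts of Slc22a5 and Slc22a21 were identical at 93.2% of 2953 aligned bases, and 13.7% of the 100-base windows of Slc22a5 occurred unchanged in Slc22a21, so reads could be divided between them by the counting. Slc22a5 held 95.7 to 96.5% of the counts of the 3 genes in control mice, 81.6 to 89.0% in NASH mice and 82.2 to 88.9% in NASH+Exercise mice. Slc22a21 was at 2.07 ± 0.796 CPM in control mice and 1.61 ± 0.431 CPM in NASH mice, and Slc22a4 was at 2.71 ± 0.723 and 1.90 ± 0.420 CPM. Neither was called (edgeR adjusted p = 0.462 and 0.238). In TPM, however, Slc22a21 was higher in every NASH mouse, at 0.79 to 0.93, than in any control mouse, at 0.26 to 0.76, and its sign turned on log2(TPM + 1) (0.25) and log2(TPM + 0.1) (0.59). How the counting divided reads between Slc22a5 and Slc22a21 was not tested.

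Of the 10 genes on a list of carnitine synthesis and the carnitine shuttle, 0 were called higher and 7 lower in NASH mice against control mice. Of all genes tested, 15.3% were called higher and 3.03% lower. The 10 genes had a median log2 fold change of -1.08 beside 0.01 over all genes. NASH and control mice did not overlap for 10 of 10, beside 49.6% of all genes. This list and the gene lists below were chosen with earlier results of these data known, so their counts and medians are a description. Crat, carnitine acetyltransferase, fell from 257 ± 7.60 to 54.1 ± 22.5 CPM (log2 fold change -2.25 ± 0.30, edgeR adjusted p = 0.000374). Cpt2, the inner membrane carnitine palmitoyltransferase, fell from 346 ± 44.5 to 105 ± 17.3 CPM (-1.72 ± 0.17, edgeR adjusted p = 4.07e-05). Cpt1b and the mitochondrial carnitine-acylcarnitine carrier Slc25a20 were called with log2 fold changes of -2.05 ± 0.22 and -1.38 ± 0.17. Aldh9a1 and Shmt1, which take part in carnitine synthesis, and Cpt1a, the liver form of the outer membrane enzyme, were called with -1.08, -1.07 and -1.003. With library size alone 4 were called, and on log2(TPM + 1) and log2(TPM + 0.1) 3 were called, Crat, Cpt2 and Cpt1b, while Slc25a20 was at -0.945 and -0.952. Aldh9a1, Shmt1 and Cpt1a lost the call in each of these fits, and Cpt1a also in the fit to the 6 mice of the comparison. The call was lost for Shmt1 also without control replicate 4 (-0.93) and for Cpt1a also without control replicate 29 (-0.93) or NASH replicate 5 (-0.94). Bbox1, the last enzyme of carnitine synthesis, had -0.82 ± 0.12, Crot had -0.84 ± 0.36 and Tmlhe, the first enzyme, had 0.25 ± 0.18, and none of these was called.

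Between trained and sedentary NASH mice edgeR called 0 of the 10 carnitine genes, 2 had an unadjusted p under 0.05 and DESeq2 called 0, with a median log2 fold change of -0.05 beside -0.03 over all genes. Against control mice 7 of 10 were called lower in NASH+Exercise mice, beside 3.07% of all genes. Their median was -1.24 for the 10 genes, beside 0.003 over all genes. Cpt1b and Crat were at 2.85 ± 0.432 and 30.2 ± 10.6 CPM in trained mice.

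**Figure D3:**
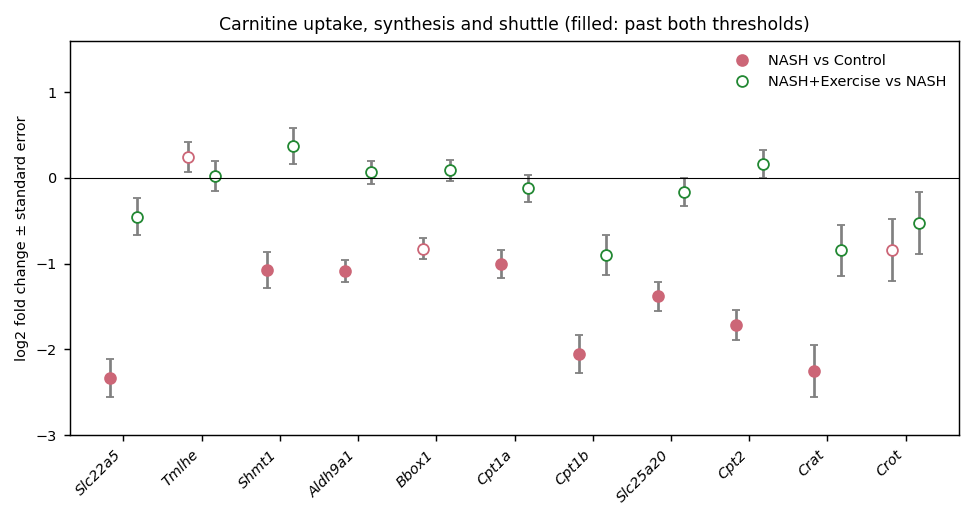
Log2 fold change ± SE of Slc22a5 and of the 10 genes of carnitine synthesis and shuttle in NASH against Control (red) and NASH+Exercise against NASH (green); filled points were called. The red points of all genes except Tmlhe lie below 0, and no green point is filled.

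Slc22a3 (Entrez Gene 20519, chr17:12419972-12507704) encodes OCT3, a low-affinity carrier of monoamines and histamine. Control mice had 5.53, 6.28 and 6.68 CPM. NASH mice had 1.08, 2.44 and 1.32 CPM. NASH+Exercise mice had 1.61, 1.56 and 1.71 CPM. The control mice did not overlap with either group on the Ath diet, and the trained mice lay inside the range of the sedentary ones. The log2 fold change was -1.92 ± 0.29 in NASH mice and -1.92 ± 0.29 in NASH+Exercise mice, each against control mice, and 0.01 ± 0.30 between the groups on the Ath diet. These values rest on 103 to 131 estimated counts per control mouse and 26 to 63 per NASH mouse. On log2(TPM + 1), which compresses low levels, the difference between NASH and control mice was -0.92 and Slc22a3 was not called.

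Of 6 genes that break down monoamines and histamine, 1 was called higher and 0 lower in NASH mice against control mice, with a median log2 fold change of -0.40. Of all genes tested, 15.3% were called higher and 3.03% lower, with a median of 0.01. Hnmt, histamine N-methyltransferase, rose from 11.3 ± 2.56 to 25.2 ± 4.21 CPM (1.16 ± 0.19, edgeR adjusted p = 0.00102), a call lost without control replicate 4 (0.98) or NASH replicate 19 (0.999). Maob, monoamine oxidase B, had a log2 fold change of -0.68 ± 0.13 and was not called. Between trained and sedentary NASH mice edgeR called 0 of the 6, 2 had an unadjusted p under 0.05 and DESeq2 called 0.

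Slc22a7 (Entrez Gene 108114, chr17:46432185-46438477) encodes OAT2, a carrier of organic anions on the blood side of hepatocytes. It is part of the thyroid hormone response signature that the study used. Control mice had 4.88, 13.8 and 5.15 CPM. NASH mice had 7.07, 7.18 and 4.38 CPM. NASH+Exercise mice had 18.8, 29.7 and 26.8 CPM. All trained mice were above all other mice, whereas the control and NASH mice overlapped, with 1 control mouse well above the other two.

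The log2 fold change of Slc22a7 was 2.01 ± 0.39 in NASH+Exercise against NASH mice, 1.66 ± 0.39 against control mice and -0.35 ± 0.40 in NASH against control mice. By edgeR on 9 mice it was called only against control mice, where the call was lost without control replicate 29 (log2 fold change 1.40). Against NASH mice edgeR called it on the 6 mice of the comparison and without control replicate 4. DESeq2, the tool of the study, also called it against NASH mice, in a fit that called 1.25% of all genes, as did limma on log2(TPM + 1). The difference between trained and sedentary NASH mice stayed between 1.82 and 2.19 with any single mouse left out. Without control replicate 4, the mouse at 13.8 CPM, the difference between NASH and control mice was 0.29 instead of -0.35. It was 0.18 on log2(TPM + 1) and 0.22 on log2(TPM + 0.1).

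Slc22a27, Slc22a28 and Slc22a30 lie in a row of anion branch genes on chromosome 19 that is particular to rodents. Slc22a28 (Entrez Gene 434674) lies at chr19:8061958-8131982 and Slc22a30 (Entrez Gene 319800) at chr19:8335371-8405111, with Slc22a29 between them. The longest coding transcripts of Slc22a28 and Slc22a30 were identical at 98.9% of 1485 aligned bases, and 31.6% of the 100-base windows of Slc22a28 occurred unchanged in Slc22a30. Their promoters were nearly as similar. The 250 bases before the start of each gene, as given by RefSeq for GRCm38.p6, are printed because the pair is compared below and because Slc22a29, with a related promoter, was almost silent in liver at 0.08 to 0.37 TPM. All 3 genes are on the minus strand, and the windows are chr19:8131983-8132232 for Slc22a28, chr19:8405106-8405355 for Slc22a30 and chr19:8218901-8219150 for Slc22a29. The sequences run 5′ to 3′ towards the gene. Capitals mark bases that differ or are unaligned between Slc22a28 and Slc22a30, and in Slc22a29 those that differ from Slc22a28 or are unaligned.
Slc22a28: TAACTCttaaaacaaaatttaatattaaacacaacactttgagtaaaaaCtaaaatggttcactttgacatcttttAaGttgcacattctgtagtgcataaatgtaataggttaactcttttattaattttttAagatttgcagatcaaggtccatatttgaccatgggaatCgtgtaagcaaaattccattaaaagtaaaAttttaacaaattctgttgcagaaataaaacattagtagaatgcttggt
Slc22a30: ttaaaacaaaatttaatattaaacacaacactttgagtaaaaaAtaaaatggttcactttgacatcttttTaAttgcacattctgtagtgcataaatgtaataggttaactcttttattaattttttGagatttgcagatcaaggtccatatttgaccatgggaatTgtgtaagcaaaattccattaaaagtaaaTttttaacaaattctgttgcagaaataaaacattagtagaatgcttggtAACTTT
Slc22a29: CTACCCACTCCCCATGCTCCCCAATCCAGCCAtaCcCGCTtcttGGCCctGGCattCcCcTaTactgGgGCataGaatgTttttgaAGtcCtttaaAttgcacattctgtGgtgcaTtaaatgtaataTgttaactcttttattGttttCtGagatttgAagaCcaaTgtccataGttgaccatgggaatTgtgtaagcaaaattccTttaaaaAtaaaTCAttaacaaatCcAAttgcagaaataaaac

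The Slc22a28 and Slc22a30 windows matched at 238 of 244 aligned bases (97.5%), with 6 mismatches and 12 unaligned bases at the ends. Slc22a28 and Slc22a29 matched at 174 of 213 aligned bases (81.7%). The last 6 bases of the Slc22a30 window fall inside the gene's annotated span. The whole Slc22a29 window lies inside the RefSeq span of that gene, chr19:8160168-8253375, which begins farther upstream than the start used for the window.

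Slc22a28 had 7.89, 7.28 and 4.18 CPM in control mice. It had 2.08, 1.98 and 2.38 CPM in NASH mice. It had 6.68, 7.51 and 9.90 CPM in NASH+Exercise mice. The NASH mice lay below every other mouse, and the trained mice overlapped with the control mice. The log2 fold change was -1.59 ± 0.26 in NASH against control mice, 1.90 ± 0.26 in NASH+Exercise against NASH mice and 0.32 ± 0.25 in NASH+Exercise against control mice. On log2(TPM + 1) the first of these was -0.88 and Slc22a28 was not called in NASH against control mice.

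The call of Slc22a28 in trained against sedentary NASH mice depended on single libraries although its size did not. The log2 fold change stayed between 1.73 and 2.02 with each mouse left out, but the call was lost without control replicate 3, without any of the 3 NASH mice and without NASH+Exercise replicate 18 or 22. In those fits between 0 and 5 of all genes tested were called.

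Slc22a30 had 134, 84.3 and 104 CPM in control mice. NASH mice had 69.2, 65.7 and 81.2 CPM. NASH+Exercise mice had 135, 118 and 114 CPM. The NASH mice were again below every other mouse, and the trained mice overlapped with the control mice, but the differences were smaller. In TPM the NASH and control mice overlapped. The log2 fold change was -0.58 ± 0.17 in NASH against control mice and 0.77 ± 0.17 in NASH+Exercise against NASH mice, a 1.70-fold difference, and Slc22a30 was called in neither.

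Because reads of Slc22a28 and Slc22a30 could be exchanged by the counting, the genes were also added up. Slc22a28, Slc22a29 and Slc22a30 together were at 91.9 to 143 CPM in control mice, 67.9 to 84.0 CPM in NASH mice and 124 to 142 CPM in NASH+Exercise mice. The sum was lower in NASH mice than in every mouse of the other groups. Slc22a28 made up 3.88 to 7.93% of the sum in control mice, 2.84 to 2.90% in NASH mice and 4.69 to 7.95% in NASH+Exercise mice. Its share too was lower in every NASH mouse than in any other mouse. Counted as 1 feature from Slc22a26 to Slc22a30, the genes had a log2 fold change of -0.61 in NASH against control mice and 0.80 in NASH+Exercise against NASH mice. Both were smaller in size than the values of Slc22a28 alone. Slc22a30 held 91.0 to 95.8% of these counts, so the sum mainly follows Slc22a30, which had -0.58 and 0.77. It cannot show how Slc22a28 itself differed. How the authors' counting divided reads between these genes was not tested.

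**Figure D4:**
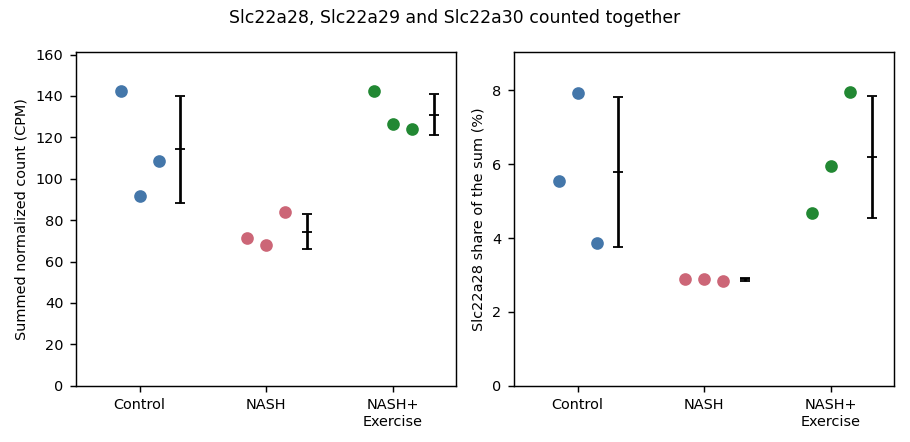
Left, summed CPM of Slc22a28, Slc22a29 and Slc22a30 in each mouse; right, the percentage of that sum counted for Slc22a28; bars show mean and SD of 3 mice. The NASH mice lie below all other mice in each panel.

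Slc22a27 (Entrez Gene 171405, chr19:7864388-7966517) was near the limit of detection. Control mice had 0.912, 0.334 and 0.306 CPM. NASH mice had 0.665, 0.155 and 0.595 CPM. Trained mice had 0.131, 0.189 and 0 CPM, lower than every control mouse but overlapping with the NASH mice. No mouse had more than 17.39 estimated counts, and the trained mice had between 0 and 4.23. The fitted log2 fold change was -0.14 ± 0.67 in NASH against control mice -2.06 ± 0.84 in NASH+Exercise against NASH mice and -2.20 ± 0.85 in NASH+Exercise against control mice. None of these was called, and each rests on a few reads per mouse. Its transcript shared 7.4% of its 100-base windows with Slc22a29, so its few reads may also be divided.

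Slc22a15, Slc22a18 and Slc22a23 are distant members of the family. Slc22a15 (Entrez Gene 242126, chr3:101854443-101928220), for which zwitterions such as ergothioneine and carnosine have been described as substrates, had 7.19, 6.78 and 9.49 CPM in control mice. NASH mice had 5.49, 5.98 and 5.99 CPM. The trained mice had 4.98, 4.15 and 4.48 CPM. The 3 groups did not overlap, and control mice were the highest and trained mice the lowest. Its log2 fold change was -0.43 ± 0.18 in NASH against control mice, -0.36 ± 0.18 in NASH+Exercise against NASH mice and -0.79 ± 0.18 in NASH+Exercise against control mice, and none of these was called. In TPM the control and NASH mice overlapped, and on log2(TPM + 1) and log2(TPM + 0.1) the first difference was close to 0.

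Slc22a18 (Entrez Gene 18400, chr7:143473726-143499334) lies in an imprinted cluster beside Phlda2 and Cdkn1c and encodes a carrier of poorly known substrates. Control mice had 104, 144 and 88.3 CPM. NASH mice had 114, 99.96 and 108 CPM. Trained mice had 117, 127 and 144 CPM. The control mice spanned nearly the whole range, and the trained mice were above the NASH mice without overlap. Its log2 fold change was -0.07 ± 0.17 in NASH against control mice and 0.27 ± 0.17 in NASH+Exercise against NASH mice. The sign of the first was not stable. It was 0.30 with library size alone, where the median of all genes was 0.36, and 0.39 and 0.40 on log2(TPM + 1) and log2(TPM + 0.1), where that median was 0.34 and 0.445. Without control replicate 4 it was 0.14. In TPM the NASH mice, at 136 to 147, were above the control mice, at 101 to 123, and overlapped with the trained mice.

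Slc22a23 (Entrez Gene 73102, chr13:34179158-34345275) is an orphan carrier. Control mice had 77.4, 89.2 and 91.5 CPM. NASH mice had 66.4, 60.7 and 60.7 CPM. The trained mice had 71.6, 66.0 and 81.5 CPM. The NASH mice were below all control mice and overlapped with the trained mice. Its log2 fold change was -0.46 ± 0.12 in NASH against control mice and 0.22 ± 0.12 in NASH+Exercise against NASH mice. In TPM the groups were at 21.98 ± 3.77, 21.5 ± 1.78 and 20.3 ± 2.14 and overlapped.

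**Figure D5:**
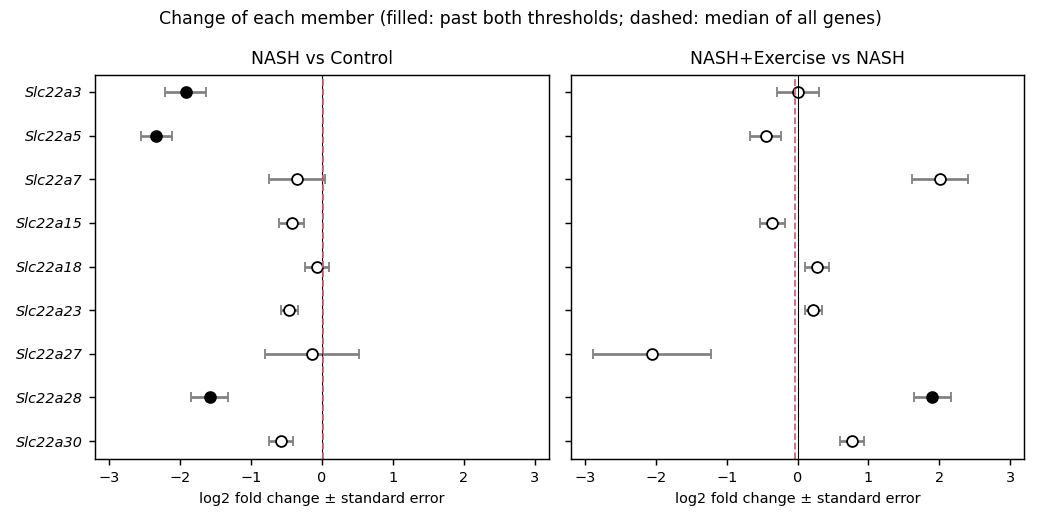
Log2 fold change ± SE of the 9 genes in NASH against Control (left) and NASH+Exercise against NASH (right); filled points were called and dashed lines mark the median of all genes, 0.01 and -0.03. On the left all 9 values are below 0, and on the right Slc22a7 and Slc22a28 are near 2 while Slc22a3 is at 0.01.

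Set side by side, all 9 genes had a lower fitted level in NASH mice than in control mice, with a median log2 fold change of -0.46 beside 0.01 over all genes. For 6 of them the values of the mice did not overlap, beside 49.6% of all genes. Without scaling factors 6 were lower and 3 higher, with the median of all genes at 0.36, and in both fits to TPM 5 were lower and 4 higher. In NASH+Exercise mice against NASH mice 6 were higher and 3 lower, with a median of 0.22 beside -0.03 over all genes, and 5 did not overlap, beside 24.1% of all genes. With library size alone 5 were higher and 4 lower, with the median of all genes at -0.235, and in both fits to TPM 3 were higher and 6 lower, with that median at -0.26 and -0.33. Between trained and control mice 3 were called, 1 higher (Slc22a7) and 2 lower (Slc22a3 and Slc22a5), beside 13.5% of all genes, 10.4% higher and 3.07% lower, and 5 did not overlap, beside 38.6% of all genes. The comparisons share mice and are not independent of each other.

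Among the 12 other Slc22a genes, 5 had enough counts to be tested and edgeR called 0 in each of the 3 comparisons. For NASH against control mice 1 had an unadjusted p under 0.05 and DESeq2 called 0, and for NASH+Exercise against NASH mice 2 had such a p and DESeq2 called 0, and the same held for NASH+Exercise against control mice. Slc22a17, a receptor-like member of the family, had a log2 fold change of 0.72 ± 0.34 in NASH against control mice (edgeR adjusted p = 0.133) and -0.95 ± 0.35 in NASH+Exercise against NASH mice (edgeR adjusted p = 0.244). Without control replicate 29 it was called higher in NASH mice, at 1.07, as it was on log2(TPM + 0.1), at 1.08, but not on log2(TPM + 1). Slc22a26, at under 1 CPM in each group on average, had -0.43 and -0.85 (edgeR adjusted p = 0.502 and 0.441). The 7 genes Slc22a2, Slc22a8, Slc22a12, Slc22a13, Slc22a14, Slc22a22 and Slc22a29, had too few counts for a test.

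Slc22 genes of the kidney tubule such as Slc22a8 and Slc22a12 were near 0 in these livers. Of 5 kidney tubule markers, Slc34a1 and Lrp2 summed to 0.322 to 0.834 CPM in control mice, 0.0831 to 0.272 CPM in NASH mice and 0.661 to 2.19 CPM in NASH+Exercise mice. The others, Umod, Kap and Slc12a1, had no entry under these symbols among the measured genes and could not be analysed. DESeq2 called Lrp2 higher in trained than in NASH mice, with a log2 fold change of 2.96, but edgeR did not call it. This fold change rests on levels near 0.

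Of 20 other carriers of organic ions in hepatocytes that were tested, 3 were called higher, 3 lower and 14 not at all in NASH mice against control mice. Of all genes tested, 15.3% were called higher and 3.03% lower. For 10 of the 20 the groups did not overlap, beside 49.6% of all genes. The median log2 fold change of the 20 was -0.22 beside 0.01 over all genes. Abcb1a, an efflux pump, rose from 1.61 ± 0.525 to 8.07 ± 1.34 CPM (2.32 ± 0.28, edgeR adjusted p = 0.000127). Abcc1, another efflux pump, and the carnitine and creatine carrier Slc16a9 were called with 2.22 ± 0.23 and 1.40 ± 0.29. Slc10a1, the bile salt uptake carrier, fell from 628 ± 15.9 to 275 ± 51.5 CPM (-1.19 ± 0.15, edgeR adjusted p = 0.000203). Slc47a1, a proton-coupled exporter of organic cations, and Slco1a1 had -1.21 ± 0.20 and -1.02 ± 0.31, and for Slco1a1 the groups overlapped. The calls of Slc10a1, Slc47a1 and Slco1a1 were lost when counts were scaled by library size alone and on log2 TPM values, and that of Slco1a1 also on the 6 mice of the comparison and without control replicate 3 or 29 or NASH replicate 5 or 19 (-0.92 to -0.84). For trained against sedentary NASH mice edgeR called 0 of the 20, 7 had an unadjusted p under 0.05, and DESeq2 called Abcb1a and Slco1a4 lower.

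Of 8 genes of urate formation and transport, 2 were called higher and 0 lower in NASH mice, with a median log2 fold change of -0.15. Of all genes tested, 15.3% were called higher and 3.03% lower, with a median of 0.01. Xdh, xanthine dehydrogenase, rose from 95.9 ± 10.3 to 203 ± 22.05 CPM (1.08 ± 0.15, edgeR adjusted p = 0.000395), a call lost without control replicate 29 (0.95). The anion carrier Slc17a4 was called with 1.28 ± 0.18. Of 14 transcription factors of hepatocyte transporters, beside the same shares of all genes, 0 were called higher and 1 lower, with a median of -0.35. This was Nr1i3, the nuclear receptor CAR, which fell from 183 ± 16.9 to 91.2 ± 30.7 CPM (-1.01 ± 0.22, edgeR adjusted p = 0.00506), a call lost when counts were scaled by library size alone, on log2 TPM values or without control replicate 3 or 4 or NASH replicate 5 or 19 (-0.99 to -0.83). Ppara, the fatty acid receptor of which Slc22a5 and the Cpt genes are known targets, had -0.90 ± 0.17 (edgeR adjusted p = 0.00206) and its groups did not overlap, but it was under the fold threshold. For trained against sedentary NASH mice edgeR called 0 genes of either list, 2 urate genes and 4 transcription factors had an unadjusted p under 0.05, and DESeq2 called 0.

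For each gene the 3 genes with the most similar pattern were found by the root mean square difference of log2 CPM over the 9 mice, after centring each gene on its mean. The nearest to Slc22a5, whose own root mean square deviation from its mean was 1.26, were Retsat (0.21), the long-chain acyl-CoA synthetase Acsl1 (0.24) and malic enzyme Me1 (0.24). For Slc22a3 they were the ornithine aminotransferase gene Oat (0.11), Ugt1a10 (0.22) and Bhmt (0.26). For Slc22a7 they were Creld2 (0.48), the deiodinase gene Dio1 (0.48) and Hsd3b5 (0.50), a looser likeness beside its own deviation of 1.01. For Slc22a28 they were Car3 (0.19) and the major urinary protein genes Mup22 (0.28) and Mup10 (0.32), which have near-identical copies. For Slc22a30 they were Keg1 (0.17), Gtpbp4 (0.17) and the growth hormone receptor gene Ghr (0.18). The deviation of Slc22a30 itself was only 0.37, so this likeness is loose too. Slc22a15, Slc22a18 and Slc22a23 varied so little, with deviations of 0.34, 0.22 and 0.21, that a small difference from another gene says little. Their nearest genes were 2900026A02Rik, Picalm and Gpam, then Mpnd, Pepd and H13, then Rraga, Lipt1 and Pard3. For Slc22a27, with counts near 0, they were Gal3st3, Slc22a26 and Rnf24. These distances are descriptions over 9 mice in 3 groups.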

How the data were processed

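RNA-seq libraries of 9 livers were used. For each gene the authors deposited an estimated count, FPKM and TPM per mouse. Per the submitters' processing notes, HISAT2 2.1.0, Bowtie2 2.2.5 and RSEM 1.2.8 and the build GRCm38.p6 were named, without their roles. FPKM values were not used. Each mouse's TPM values, as deposited by the authors, served to compare genes. The deposited estimated counts, 29.0 to 32.8% of them not whole, were rounded. The test was the robust quasi-likelihood test of edgeR 4.0.16 (R 4.3.3) on 9 mice, with no covariate beside group. Genes passed filterByExpr (10 counts, total 15), libraries were scaled by TMM, and p-values were adjusted by Benjamini-Hochberg across 13619 genes. The standard error was derived from the log2 fold change and its F statistic. The study used DESeq2. DESeq2 1.42.0, limma 3.58.1 on log2 TPM with a pseudocount of 1 or 0.1, other scaling, no filter, the 6 mice of a comparison and leaving out each mouse were alternatives. The 9 genes and the gene lists were chosen with earlier results of these data known. The plan was to name the 9, tested Slc22a genes and up to 6 called genes per list and comparison. It also held the nearest 2 tested genes on each side and the 3 nearest patterns. Beyond that plan, the text names every called carnitine gene and the uncalled Bbox1, Crot, Tmlhe, Maob and Ppara. Sequences and positions came from RefSeq (GRCm38.p6), where 17728 of 17846 identifiers had a symbol, and transcripts from GENCODE. Alignments used Biopython 1.88. Of the tested Slc22a genes 1 is not reported here. The edgeR step was tested on simulated data. Precision is limited by 3 mice per group, and low counts carry counting error in addition.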

Additional observations from a re-analysis of the deposited data

How the results depend on the processing

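The 3 calls in NASH against control mice (Slc22a3, Slc22a5 and Slc22a28) were made in every fit with a mouse left out (range 3 to 3), 1 remained on log2(TPM + 1), Slc22a5, and 5 passed by adjusted p alone. In NASH+Exercise against NASH mice the number called was 0 to 2 with a mouse left out, and it was 2, Slc22a28 and Slc22a7, with DESeq2 on 9 or 6 mice, with limma on log2(TPM + 1) and with edgeR on the 6 mice. In NASH+Exercise against control mice it was 2 to 3 with a mouse left out. Of the other Slc22a genes 1 was called in NASH against control mice on log2(TPM + 0.1) and 1 by adjusted p alone, and 0 to 1 with a mouse left out, 1 without control replicate 29. Of the genes on the pathway lists 17 were called in NASH against control mice, but 11 with library size alone, 9 on log2(TPM + 1), 10 on log2(TPM + 0.1) and 32 by adjusted p alone. In NASH+Exercise against NASH mice 0 were called, but 2 with DESeq2 on 9 or 6 mice and 1 on log2(TPM + 1). The sign turned for Slc22a21 in NASH against control mice on log2(TPM + 1) (0.25) and log2(TPM + 0.1) (0.59) and for Slc22a26 without control replicate 3 (0.019, range -0.761 to 0.019 with a mouse left out). It turned for Slc22a4 in NASH+Exercise against NASH mice with library size alone (-0.17), on log2(TPM + 1) (-0.18), on log2(TPM + 0.1) (-0.29), without NASH replicate 5 (-0.11) and without NASH+Exercise replicate 22 (-0.17, range -0.17 to 0.285 with a mouse left out). The cause was not tested. No called Slc22 gene of the 9 changed sign. No paired analysis was possible because the groups share no replicate number. With 3 mice per group only large differences could be called, and genes at a few counts per mouse, such as Slc22a27, gave differences that rest on few reads.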

Other observations

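Irf1, the interferon-responsive transcription factor 86168 bases from Slc22a5, rose in NASH mice against control mice (log2 fold change 1.38, edgeR adjusted p = 3.31e-05). Phlda2, an imprinted growth regulator 2211 bases from Slc22a18, rose as well (2.39, edgeR adjusted p = 0.00199), as did the kinase gene Ttbk1, 3971 bases from Slc22a7 (1.49, edgeR adjusted p = 0.00177), and the tubulin gene Tubb2b, 48804 bases from Slc22a23 (2.605, edgeR adjusted p = 0.00959). The calls of Ttbk1 and Tubb2b were lost on log2(TPM + 1). Plg, the plasminogen gene 588 bases from Slc22a3, had -0.15 (edgeR adjusted p = 0.567). Apart from Irf1, Phlda2, Ttbk1, Tubb2b and Slc22a28, none of the nearest 2 tested genes on each side was called in this comparison. Of all genes tested, 15.3% were called higher and 3.03% lower.

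Short motifs were counted on both strands in the 250 bases before the start of 8 of the 9 genes, since the promoter table used held no entry for Slc22a7. The GC box GGGCGG was found in 3 of 8, with 3 matches in Slc22a5, 4 in Slc22a23 and 1 in Slc22a15, beside 32.7% of 32851 promoters. The nuclear receptor half-site AGGTCA was found in Slc22a27 (14.0% of promoters) and the STAT site TTCNNNGAA in Slc22a15 (7.02%). The CCAAT box had 0 matches in the 8 windows, beside 33.8% of promoters. The TATA box, TATAAA, also had 0, beside 12.4%, and the GTTAAT half-site of HNF1 had 0, beside 6.43%. A match is a description of these letters and not evidence of binding.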
